A study of Mus musculus with 24 samples.

Results

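MicroRNAs (miRs) were measured in the hippocampus of neonatal mice that had received 2 mg/kg morphine together with stress (MS2), and compared with untreated controls (Con). The comparison used 6 of the 24 arrays of the series, 3 MS2 and 3 Con miR arrays, chosen by their labels, and all 1412 mouse probe sets of the miR table. Of these, 722 report mature miRs and 690 report hairpin precursors. All mice were male C57BL/6 pups killed on P9 (postnatal day 9), and both hippocampi of a pup were pooled. Con pups stayed with the dam and carried no treatment. MS2 pups were given repeated injections of morphine from P5, each followed by brief apnea (nitrogen, then oxygen), and were separated from the dam. Another miR group (MS5) had the same protocol with 5 mg/kg morphine. Morphine, injection, apnea and separation therefore cannot be told apart in MS2 minus Con, and no group had stress without morphine. Each array held 1 pup. Treated pups spent the night in the home cage with control littermates, and which arrayed pups shared a litter was not given in the sources used here.

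A miR is a short RNA that is cut from a hairpin precursor and guides the silencing complex to messenger RNAs, mainly by pairing through its seed, bases 2 to 8 from the 5′ end. Relatives with the same seed can share targets. Each hairpin has 2 arms, and on this array a star marks the arm that was thought to be the minor product. Many miRs lie inside protein-coding or non-coding genes, called hosts here, or in clusters made from a common transcript. In hippocampus, miRs act on neuronal differentiation, on synapses and on the response to activity, for which the pair miR-132 and miR-212, induced through CREB, is a known example.

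The values are log2 levels, and a difference of 0.58 corresponds to the study's threshold of 1.5-fold. A probe set was called when its adjusted p (limma, Benjamini-Hochberg over all 1412 probe sets) was under 0.05. A second count used the study's threshold, over 1.5-fold with an unadjusted p under 0.05. The exact permutation test of 3 arrays against 3 cannot go below p = 0.1. Array medians were 4.17 to 4.21, and 24.6% to 25.4% of the probe sets had a level above 5. Replicates of a group correlated at 0.983 to 0.996. MS2 replicate 4 stood apart from the other MS2 arrays, with r = 0.983 to replicate 3 and 0.985 to replicate 6, against r = 0.996 between replicates 3 and 6. The tissue label was checked against markers. The neuronal miR-124 was measured at 14.27 in both groups, and miR-138 and miR-132 also lay far above the array medians. Markers of liver (miR-122, 4.50 in Con and 4.74 in MS2), heart (miR-208b, 4.14 and 4.10) and oligodendrocytes (miR-219, 4.04 and 4.10) lay near them. Of miR-338, another oligodendrocyte marker, miR-338-3p also lay near them (4.07 and 4.04), but miR-338-5p lay above (5.64 and 5.95). Markers of choroid plexus and ciliated cells lay well above the medians in Con: miR-34c (10.59), miR-449a (8.85), miR-204 (7.19) and miR-448 (7.18). So did the mesenchymal miR-214 (7.06). Of 10 choroid plexus and ciliated cell probe sets, 7 had a mean level above 5. Of 14 mesenchymal and meningeal ones, 7 did. How much of such tissue the samples held was not tested. In bulk tissue, fewer cells of a type and less RNA per cell cannot be told apart.

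At adjusted p under 0.05, 16 probe sets (1.13%) differed, of which 6 were higher in MS2 (0.425%) and 10 lower (0.708%). With only Con and MS2 in the fit, or with a trended robust prior, limma called 0 (169 and 179 at an unadjusted p under 0.05), so the calls rest on the spread shared with the MS5 arrays and on the plain prior. They comprised 15 mature miRs and 1 hairpin. miR-30c, miR-301a, miR-130a, let-7i, miR-31* and miR-1839-3p rose, by 1.45-fold to 1.72-fold. miR-139-3p, miR-574-3p, miR-423-5p, miR-501-3p, miR-500, miR-532-5p, miR-296-3p, miR-17*, miR-212 and the hairpin mir-483 fell, by 1.30-fold to 2.03-fold. Past the study's threshold were 42 probe sets (2.97%), 20 higher and 22 lower. At an unadjusted p under 0.05 without a fold limit, 186 probe sets differed, 78 higher and 108 lower. Over all 1412 probe sets the median difference was -0.01.

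The sequences of the called miRs are shown first, because their seeds and base composition bear on the results that follow. They come from RefSeq (GRCm38.p6), with the seed in capitals, and 13 of the 15 called mature miRs had an entry. The 5 that rose are these, and the first pair shares its seed:
miR-130a: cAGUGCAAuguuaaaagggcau
miR-301a: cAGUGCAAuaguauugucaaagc
miR-30c: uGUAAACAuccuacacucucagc
let-7i: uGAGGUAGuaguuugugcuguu
miR-31*: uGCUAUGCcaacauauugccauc
The 8 that fell are these, and again the first pair shares its seed:
miR-500: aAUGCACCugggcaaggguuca
miR-501-3p: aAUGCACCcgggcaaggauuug
miR-17*: aCUGCAGUgagggcacuuguag
miR-212: uAACAGUCuccagucacggcca
miR-423-5p: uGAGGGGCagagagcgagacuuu
miR-574-3p: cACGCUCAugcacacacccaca
miR-139-3p: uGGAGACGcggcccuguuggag
miR-296-3p: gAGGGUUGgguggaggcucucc
The remaining called mature miRs are miR-1839-3p and miR-532-5p.

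The shared seeds are AGUGCAA for miR-130a and miR-301a and AUGCACC for miR-500 and miR-501-3p. The GC content (share of G and C) of the 5 printed miRs that rose was 39.1% to 43.5%, and that of the 8 that fell was 54.5% to 68.2%, so that these ranges did not overlap.

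In GRCm38.p6 (RefSeq), miR-130a lies at chr2:84741116-84741137 (minus strand), miR-301a at chr11:87113054-87113076 (plus) within the gene Ska2, and let-7i at chr10:122985698-122985719 (minus). miR-31* lies at chr4:88910577-88910599 (minus) within a non-coding gene, Gm49890. miR-30c has identical copies at chr1:23291714-23291736 (plus) and, within Nfyc, at chr4:120769584-120769606 (minus), which the array cannot separate. Of the miRs that fell, miR-500 lies at chrX:7237695-7237716 and miR-501-3p at chrX:7241270-7241291, both on the minus strand within Clcn5, as does the hairpin of miR-532 at chrX:7248402-7248497. miR-17* lies at chr14:115043721-115043742 (plus), miR-212 at chr11:75173443-75173464 (plus), and miR-423-5p at chr11:77078122-77078144 (minus) within Nsrp1. miR-574-3p lies at chr5:64970364-64970385 (plus) within Fam114a1, miR-139-3p at chr7:101475418-101475439 (plus) within Pde2a, and miR-296-3p at chr2:174267058-174267079 (minus). The hairpin mir-483 lies at chr7:142654924-142654996 (minus) within Igf2. Whether these positions are exonic or intronic was not read here.

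miR-30c, of a widely expressed family that shares its seed, measured 10.00, 10.15 and 10.05 on Con replicates 16, 17 and 18 and 10.84, 10.65 and 10.70 on MS2 replicates 3, 4 and 6. It rose by 0.66 ± 0.09 (log2 difference ± SE, adjusted p = 0.0184), and all MS2 arrays lay above all Con arrays. Others with its seed were higher without being called: miR-384-5p by 0.79, miR-30e by 0.58 and miR-30a by 0.31 (unadjusted p = 0.00135, 0.00255 and 0.0163). miR-30b, another member of the family, was higher by 0.60 (adjusted p = 0.101). The GC contents of miR-384-5p, miR-30e and miR-30a were 34.8%, 40.9% and 45.5%.

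miR-301a measured 6.81, 7.17 and 6.98 in Con and 7.62, 7.79 and 7.89 in MS2. Its rise of 0.78 ± 0.12 (adjusted p = 0.0184) was the largest among the 6 called rises. miR-130a, of the same seed, measured 10.08, 9.99 and 10.13 in Con and 10.48, 10.71 and 10.60 in MS2, a rise of 0.53 ± 0.09 (adjusted p = 0.0281). For both, the groups were separated on every array. Of other relatives, miR-130b differed by 0.05 ± 0.44 and miR-721 by 0.05 ± 0.07, both with overlapping groups. Relative to the Con mean, miR-130b was at -0.74, 1.34 and -0.46 on MS2 replicates 3, 4 and 6. miR-301b, whose array name gives no arm, differed by 0.655, with -0.01, 1.62 and 0.36 on those arrays.

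let-7i belongs to a family that represses Lin28 and marks differentiating cells. It measured 10.51, 10.67 and 10.65 in Con and 11.37, 11.05 and 11.21 in MS2, a rise of 0.60 ± 0.09 (adjusted p = 0.0184). All MS2 arrays were above all Con arrays, with replicate 4 the lowest of the MS2 arrays. Of the 17 let-7 and miR-98 probe sets, 4 were higher at an unadjusted p under 0.05 and 0 lower, where the share over all 722 mature probe sets was 8.86% higher and 10.2% lower. The others were let-7g (+0.58), let-7a (+0.38) and the star arm let-7i* (+0.19), while let-7b differed by -0.17 and let-7c by 0.00. The median over the 17 was 0.03, against -0.01 over all mature probe sets.

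miR-31* measured 4.63, 4.67 and 4.59 in Con and 5.15, 5.59 and 5.42 in MS2, a rise of 0.75 ± 0.11 (adjusted p = 0.0184). Its Con levels lay close to the array medians, where signal over background limits what a difference can show. The other arm, miR-31, differed by 0.10 ± 0.42. miR-1839-3p measured 5.33, 5.16 and 5.23 in Con and 5.84, 5.84 and 6.25 in MS2, a rise of 0.74 ± 0.11 (adjusted p = 0.0184). Its other arm, miR-1839-5p, differed by 0.23 ± 0.15 with overlapping groups.

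**Figure D1:**
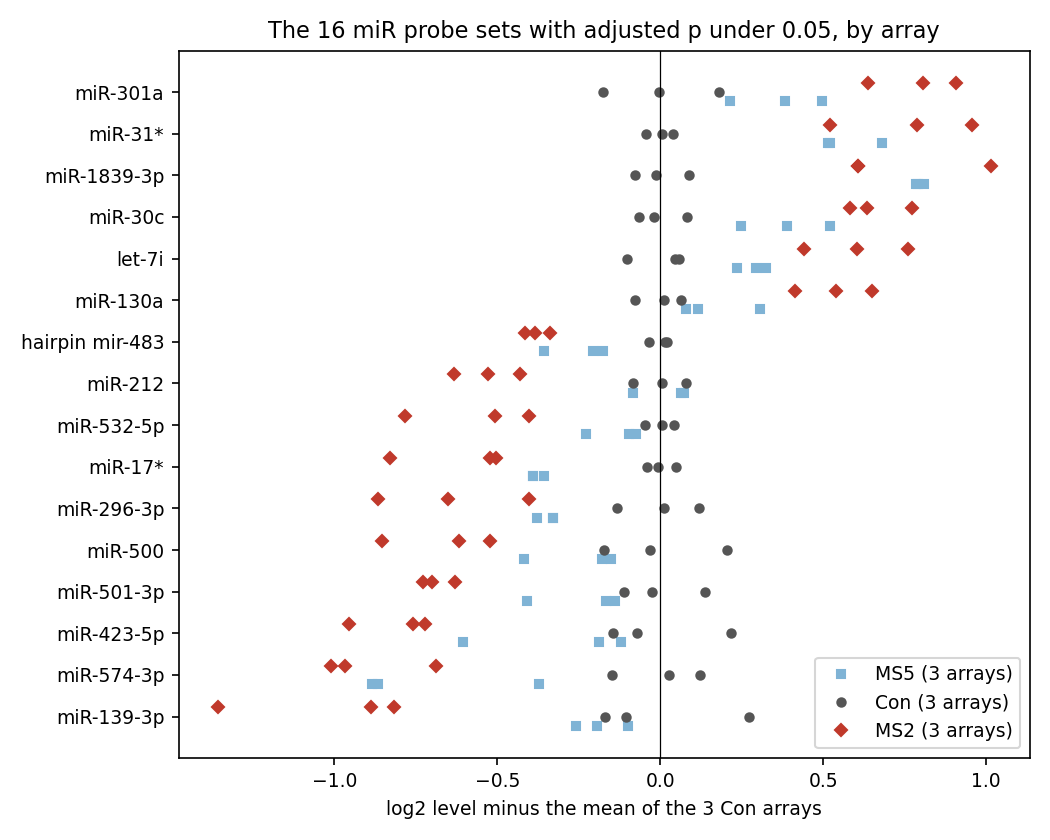
Log2 level of each of the 16 called probe sets on each array, minus the mean of the 3 Con arrays (grey circles, Con; red diamonds, MS2; blue squares, MS5, 3 arrays each). In all 16 rows the MS2 arrays lie on 1 side of the Con arrays, and the largest displacement is that of miR-139-3p.

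The miRs that fell began with miR-139-3p, whose hairpin lies within the phosphodiesterase gene Pde2a. It measured 8.45, 8.07 and 8.01 in Con and 7.29, 6.82 and 7.36 in MS2. It fell by 1.02 ± 0.16 (adjusted p = 0.0184), the largest difference among all 1412 probe sets in this fit. Its other arm, miR-139-5p, differed by -0.05 ± 0.13 (unadjusted p = 0.694) with overlapping groups. The hairpin probe set mir-139 was lower by 0.36 ± 0.11 (unadjusted p = 0.0106, adjusted p = 0.194).

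In the X-linked cluster within Clcn5, 3 members fell. miR-501-3p measured 8.05, 7.89 and 7.80 in Con and 7.21, 7.18 and 7.28 in MS2, and fell by 0.69 ± 0.10 (adjusted p = 0.0184). miR-500 measured 10.14, 9.76 and 9.90 in Con and 9.41, 9.08 and 9.32 in MS2, and fell by 0.66 ± 0.13 (adjusted p = 0.0432). miR-532-5p measured 10.13, 10.10 and 10.05 in Con and 9.59, 9.31 and 9.69 in MS2, and fell by 0.56 ± 0.10 (adjusted p = 0.0350). On each of these the groups did not overlap, and MS2 replicate 4 was the lowest array. The other probe sets of the cluster were not called. miR-188-5p was lower by 0.40 (adjusted p = 0.159), miR-532-3p by 0.33 and miR-362-5p by 0.23, whereas miR-362-3p and miR-501-5p were at +0.41 and +0.34 with overlapping groups. miR-500 and miR-501-3p have closely similar sequences, and whether their probe sets share signal was not tested.

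miR-574-3p measured 8.52, 8.24 and 8.42 in Con and 7.43, 7.71 and 7.38 in MS2, and fell by 0.89 ± 0.15 (adjusted p = 0.0281). Its other arm, miR-574-5p (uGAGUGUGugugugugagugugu), was lower by 0.67 ± 0.14 with an adjusted p of 0.0632. miR-423-5p measured 7.25, 6.89 and 6.96 in Con and 6.28, 6.31 and 6.08 in MS2, and fell by 0.81 ± 0.14 (adjusted p = 0.0350). Its other arm, miR-423-3p (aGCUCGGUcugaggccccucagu), was lower by 0.60 ± 0.15 (adjusted p = 0.101), and its hairpin probe set by 0.29 (adjusted p = 0.196). Both arms of each of these hairpins lay below Con on all MS2 arrays.

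miR-17*, the star arm of a miR of a growth-promoting cluster on chromosome 14, measured 8.85, 8.79 and 8.76 in Con and 7.97, 8.29 and 8.28 in MS2, and fell by 0.62 ± 0.09 (adjusted p = 0.0184). The main arm, miR-17, was lower by 0.23 ± 0.09 (adjusted p = 0.259), and miR-20a of the same cluster differed by 0.01. In contrast, miR-19a and miR-19b of that cluster were higher by 0.31 and 0.51 (unadjusted p = 0.0131 and 0.0330). Of the 22 probe sets of this cluster and its paralogs, 2 were higher and 6 lower at an unadjusted p under 0.05 (8.86% and 10.2% of all mature probe sets), the lower ones including miR-92b (-0.58, adjusted p = 0.0545), miR-93 (-0.39), miR-93* (-0.44) and miR-106b* (-0.43). Their median was -0.04. The GC content was 34.8% to 39.1% in the higher and 47.8% to 63.1% in the lower probe sets. Not all of these values are those of the own arm. miR-93 and miR-93* carry the same value (55.6%), and that of miR-92b is the mean of the arms listed.

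miR-212, induced by neuronal activity together with miR-132, measured 8.73, 8.65 and 8.57 in Con and 8.02, 8.22 and 8.12 in MS2, and fell by 0.53 ± 0.08 (adjusted p = 0.0184). miR-132, with the same seed, measured 10.94 in Con and 10.95 in MS2 (difference 0.01, 95% interval -0.27 to 0.29). miR-296-3p, from the imprinted Gnas region, measured 9.86, 9.61 and 9.75 in Con and 8.87, 9.34 and 9.09 in MS2, and fell by 0.64 ± 0.12 (adjusted p = 0.0357). Its neighbour miR-298 was lower by 0.57 ± 0.25, but on MS2 replicate 4 lay at 10.75, inside the Con range.

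The hairpin mir-483, in the gene of the fetal growth factor Igf2, measured 4.75, 4.80 and 4.80 in Con and 4.40, 4.37 and 4.44 in MS2, and fell by 0.38 ± 0.07 (adjusted p = 0.0413). Its mature products miR-483 and miR-483* differed by 0.07 and -0.09, with overlapping groups. At such levels close to the array medians, signal over background limits what a difference can show. Over all 690 hairpin probe sets, 14 were higher and 34 lower in MS2 with an unadjusted p under 0.05. The hairpin mir-1944, at 8.60, 8.59 and 8.69 in Con and 7.88, 7.71 and 7.97 in MS2, was lower by 0.77 ± 0.16 (adjusted p = 0.0585).

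All 16 called probe sets were separated between the groups on every array, and so were 37 of the 42 past the study's threshold. Over all 1412 probe sets, 7.22% had all MS2 arrays above all Con arrays and 8.57% had them all below. The exact permutation p was 0.1 for each of the 16. The count of calls depended on single arrays. limma called 0 probe sets without Con replicate 16, 17 or 18 or without MS2 replicate 6, where at least 130 had an unadjusted p under 0.05. Without MS2 replicate 3, 12 were called, among them 9 of the 16. Without MS2 replicate 4, the array that stood apart, 95 were called (27 higher, 68 lower), among them all 16.

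**Figure D2:**
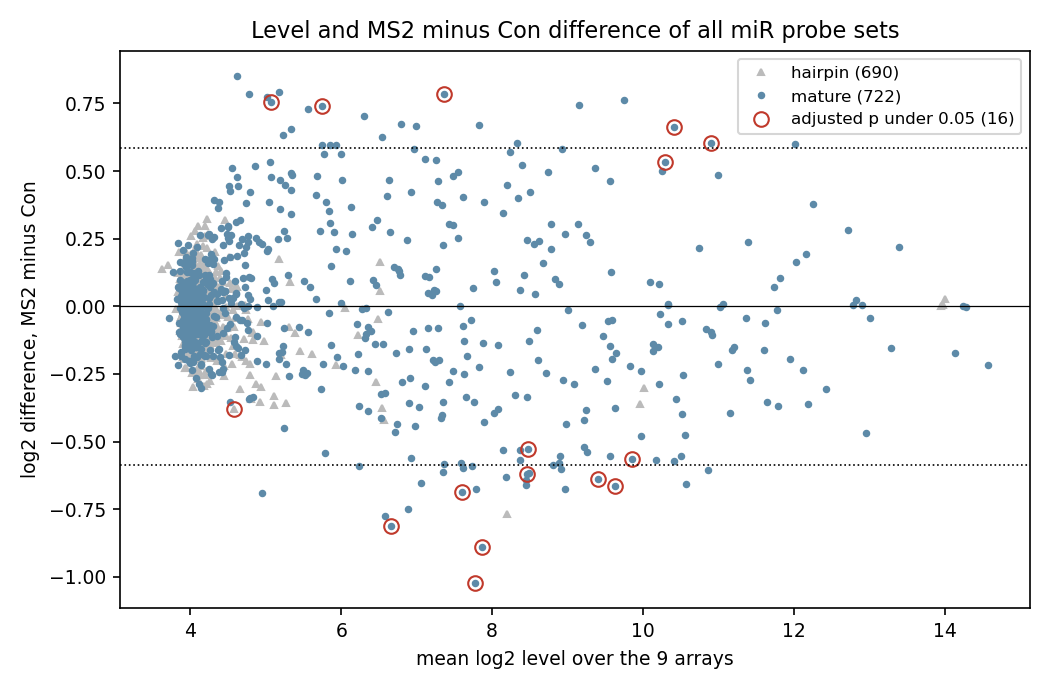
Mean log2 level over the 9 miR arrays (x axis) and log2 difference MS2 minus Con (y axis) of the 1412 probe sets, with hairpins in grey, mature miRs in blue, the 16 called probe sets circled in red and dotted lines at 1.5-fold. Most probe sets lie below a level of 5, and 15 of the 16 called ones lie above it, miR-31* only just (5.07, with a Con mean of 4.63).

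The 30 further probe sets past the study's threshold had adjusted p over 0.05. Higher in MS2 were miR-216a (+0.85), miR-384-5p (+0.79), miR-598 (+0.78), miR-434-3p (+0.76), miR-154* (+0.73), miR-153 (+0.70), miR-323-3p (+0.68), miR-410 (+0.67), miR-1983 (+0.66), miR-148b (+0.64), miR-146a (+0.63), miR-30b (+0.60), miR-125a-5p (+0.60), miR-433* (+0.60) and miR-146b (+0.60). Lower were miR-214 (-0.78), the hairpin mir-1944 (-0.77), miR-877 (-0.75), miR-218-2* (-0.69), miR-574-5p (-0.67), miR-330* (-0.67), miR-760 (-0.66), miR-320 (-0.66), miR-491 (-0.65), miR-210 (-0.63), miR-1187 (-0.61), miR-674 (-0.61), miR-668 (-0.60), miR-423-3p (-0.60) and miR-99b* (-0.59). Among these, miR-216a rested on MS2 replicate 4, at 6.02 against 4.62 and 4.64 on the other MS2 arrays.

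miR-146a and miR-146b, which share a seed and act in a feedback on NF-kappaB signalling, differed the same way. Their sequences differ only near the 3′ end:
miR-146a: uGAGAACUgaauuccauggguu
miR-146b: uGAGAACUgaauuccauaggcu
miR-146a measured 6.21, 6.31 and 6.32 in Con and 6.88, 7.10 and 6.74 in MS2 (+0.63 ± 0.13, adjusted p = 0.0574). miR-146b measured 5.43, 5.95 and 5.38 in Con and 6.34, 5.97 and 6.25 in MS2 (+0.60 ± 0.16, adjusted p = 0.112). Whether such similar probe sets share signal was not tested, here or in the let-7 and miR-30 families. Of the 11 probe sets of microglial and immune miRs, 3 were higher at an unadjusted p under 0.05 (with miR-150, +0.48) and 1 lower (miR-223, -0.25). The defining markers miR-223 and miR-142-3p lay near the array medians, at 4.42 and 4.12 in Con and 4.17 and 3.91 in MS2. Over all mature probe sets, 8.86% were higher and 10.2% lower. The median over the 11 was -0.11, and over the 4 with a mean level above 5 it was 0.54.

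Of 20 neuron-enriched probe sets, 2 were higher at an unadjusted p under 0.05, miR-153 (+0.70) and miR-128 (+0.49), and 4 were lower, miR-218-2* (-0.69), miR-212 (-0.53), miR-138 (-0.47) and miR-138* (-0.35), against 8.86% higher and 10.2% lower over all mature probe sets. miR-138, which acts at dendritic spines, measured 13.40, 13.03 and 13.13 in Con and 12.67, 12.84 and 12.64 in MS2 (adjusted p = 0.149). The groups did not overlap for miR-138, whereas they did for miR-128. The GC content was 36.4% to 47.6% in the higher and 54.5% to 59.1% in the lower ones, where miR-138 and miR-138* carry the same value (56.5%). The median over the 20 was 0.04.

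The Dlk1-Dio3 region, an imprinted domain on chromosome 12 with the largest cluster of brain miRs, held 71 of the mature probe sets. Of these, 0 were called, 15 were higher and 9 lower at an unadjusted p under 0.05 (8.86% and 10.2% of all mature probe sets), and the median was 0.06. The higher ones were led by miR-434-3p, at 9.18, 9.42 and 9.32 in Con and 10.11, 10.22 and 9.88 in MS2 (+0.76 ± 0.17, adjusted p = 0.0732), and miR-154* (+0.73). The lower ones included miR-668 (-0.60), miR-370 (-0.55) and miR-127 (-0.31). The GC content was 36.4% to 52.4% (median 43.2%) in the 15 higher and 44.7% to 68.2% (median 64.1%) in the 8 lower ones with a sequence. Here too some values are not those of the own arm, since miR-127 carries the same value as miR-127* (56.8%).

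Of the 14 mesenchymal and meningeal probe sets, 0 were higher and 4 lower at an unadjusted p under 0.05, namely both arms of miR-574, miR-214 (-0.78 ± 0.19, adjusted p = 0.0998) and miR-455 (-0.53, adjusted p = 0.223). miR-214 measured 6.95, 6.95 and 7.28 in Con and 6.17, 6.62 and 6.07 in MS2. miR-199a-3p and miR-199a-5p, which can be cut from the same Dnm3os transcript as miR-214, were at +0.56 and +0.35 (unadjusted p = 0.108 and 0.172). Whether their signal came from that transcript was not tested. Over all mature probe sets these shares were 8.86% and 10.2%. The median over the 14 was -0.02, and over the 7 with a mean level above 5 it was -0.53. On all 328 mature probe sets above that level the median was -0.06, and the GC content of the 4 lower ones was 47.8% to 59.1%.

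Of the remaining lists, the 10 choroid plexus and ciliated cell probe sets had 0 past an unadjusted p of 0.05. Their differences ran from -0.64 (miR-34c*) to 0.42 (miR-204), with overlapping groups and a median of -0.09 (0.11 over the 7 with a mean level above 5). miR-204 measured 6.99, 7.06 and 7.53 in Con and 8.30, 6.84 and 7.70 in MS2, and miR-34c 10.91, 9.84 and 11.01 in Con and 10.33, 9.83 and 10.16 in MS2. miR-448, within the serotonin receptor gene Htr2c, differed by 0.14 ± 0.59. Among 8 endothelial, vessel wall and red cell probe sets, miR-126-3p was higher (+0.50, adjusted p = 0.189), and the red cell miR-451 was at +0.48 with overlapping groups. Of the 12 oligodendrocyte and astrocyte probe sets, miR-29c* was higher (+0.30) and miR-29a* lower (-0.18) at an unadjusted p under 0.05. miR-29a and miR-338-5p were at +0.35 and +0.31 with overlapping groups. The 8 muscle and 11 epithelial and liver probe sets had 0 past that p. In the muscle list miR-206 had the largest difference (+0.79 ± 0.43), set by MS2 replicate 4 at 6.79 against 4.92 and 5.08, and miR-133a followed (+0.26). miR-122 and miR-200a* had the largest differences of the epithelial and liver list, +0.25 and +0.23. The hypoxia-inducible miR-210 was lower by 0.63 ± 0.19 (adjusted p = 0.166), at 8.68, 8.28 and 8.67 in Con and 7.96, 8.18 and 7.60 in MS2. Its GC content was 63.6%, and a link of its level with the apnea was not tested. Of 30 probe sets of miRs linked in earlier work to morphine or the mu opioid receptor, 7 were higher and 3 lower at an unadjusted p under 0.05, beside 8.86% and 10.2% of all mature probe sets, with a median of 0.00. Their largest differences were those of miR-154* and let-7i.

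The miRs that were taken on to PCR had been chosen on these samples, so their direction is not independent evidence. Of their 14 probe sets, 3 were higher (miR-1839-3p, miR-153 and miR-1983) and 4 lower (miR-574-3p, miR-574-5p, miR-214 and miR-455) in MS2 at an unadjusted p under 0.05, beside 8.86% and 10.2% of all mature probe sets. miR-153 measured 6.13, 5.82 and 5.57 in Con and 6.29, 7.0 and 6.34 in MS2, and miR-1983 6.48, 6.90 and 6.30 in Con and 7.04, 7.46 and 7.18 in MS2. The star arms miR-214* and miR-455* differed by -0.09 and 0.12.

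**Figure D3:**
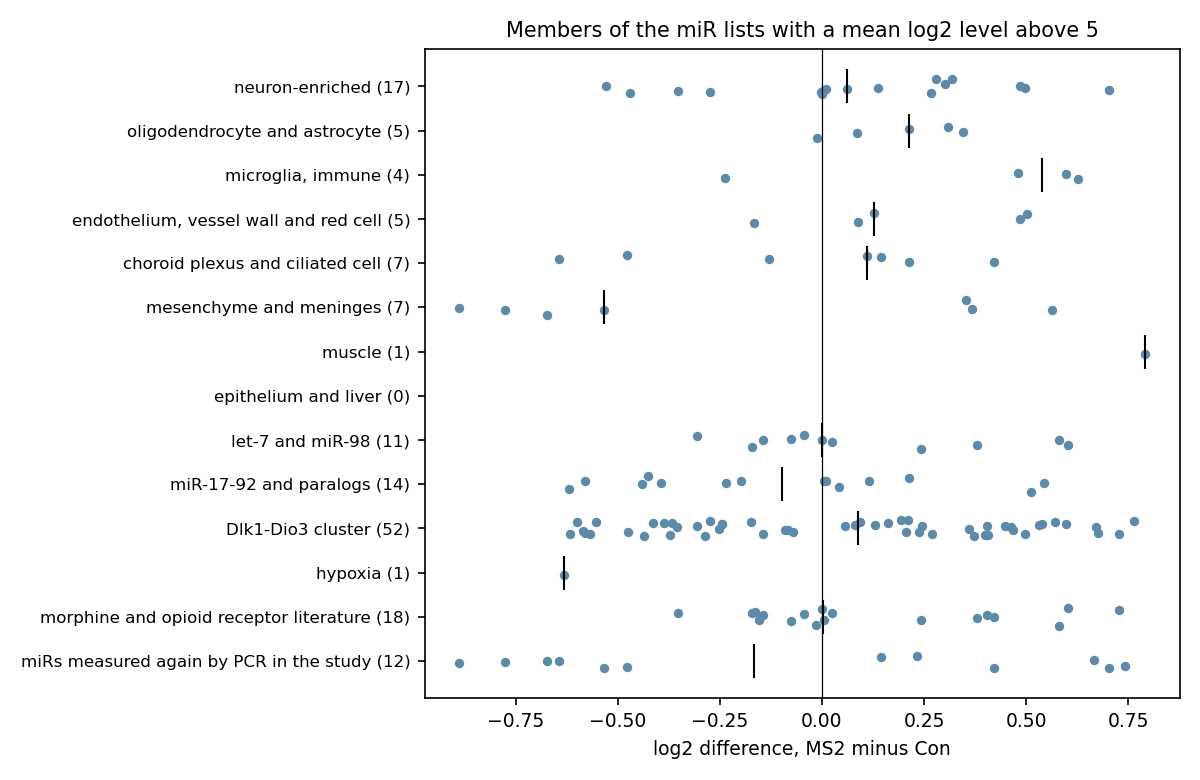
Log2 difference MS2 minus Con of the members of each miR list whose mean level over the 9 arrays was above 5 (1 point per probe set, number in brackets, vertical bar at the median, vertical jitter without meaning). Several lists spread to both sides of 0, the Dlk1-Dio3 cluster from -0.62 to 0.76.

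Base composition moved with the differences. GC content was taken for 257 mature probe sets with a mean level above 5 and a RefSeq sequence. Where a probe set, starred ones included, was not matched to its own arm, the mean of the arms listed was used. Across the 257, the MS2 minus Con difference correlated with GC content at Pearson r = -0.52 and Spearman rho = -0.58. These are descriptions across miRs that share the same 6 arrays. For the 118 with the sequence of their own arm, r was -0.55. The median difference was 0.28 for the 29 miRs under 40% GC and -0.28 for the 55 at or over 60%. In the former, 10 were higher and 1 lower at an unadjusted p under 0.05, and in the latter 1 was higher and 22 lower. By array, the level relative to the Con mean changed by -0.27 per 10 points of GC on MS2 replicates 3 and 6 and by -0.04 on replicate 4. On the Con arrays it changed by -0.05 to 0.06, and on the MS5 arrays by -0.14 to -0.01.

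With each array's linear GC trend removed, a setting chosen after the data had been seen, 5 of the 13 called miRs with a sequence were still called: miR-30c (+0.50), miR-17* (-0.57), miR-423-5p (-0.72), miR-501-3p (-0.63) and miR-574-3p (-0.75). The 8 others were not: miR-130a went from 0.53 to 0.33, let-7i from 0.60 to 0.39, miR-301a from 0.78 to 0.54, miR-31* from 0.75 to 0.59, miR-139-3p from -1.02 to -0.70, miR-296-3p from -0.64 to -0.33, miR-212 from -0.53 to -0.48 and miR-500 from -0.66 to -0.61, with adjusted p of 0.0551 to 0.192. On the same 257 probe sets without that step, 17 were called. All 13 kept their direction. The part of base composition in the differences was not tested beyond these values.

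**Figure D4:**
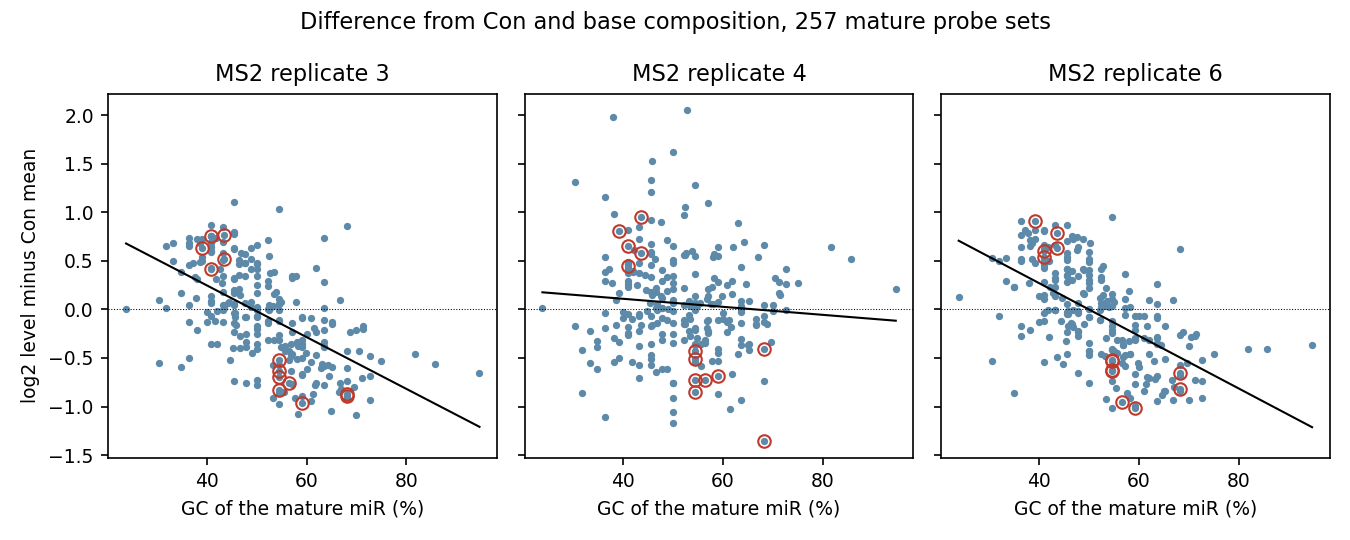
GC content of the mature miR (x axis, percent) and log2 level minus the Con mean (y axis) for 257 mature probe sets on each MS2 array, with the fitted line and the called miRs circled in red. GC is the mean of the arms listed where the own arm was not matched. The line falls by 0.27 per 10 points of GC on replicates 3 and 6 and by 0.04 on replicate 4.

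The relatives of the called miRs were read by their relation, beside the 8.86% of all mature probe sets that were higher and the 10.2% that were lower, and the 14 of 690 hairpins that were higher and 34 that were lower. Of the 14 probe sets of other arms, 1 was higher and 3 were lower at an unadjusted p under 0.05. Of the 20 hairpin probe sets, 0 were higher and 2 lower. Among 19 with a shared seed, 7 were higher and 2 lower, and these include called miRs that are relatives of each other. Of 15 further miRs within 10 kb on the same strand, 2 were higher and 4 lower.

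The values with 5 mg/kg were set beside those with 2 mg/kg. Both use the same Con arrays. For MS5 minus Con, limma called 0 probe sets (120 at an unadjusted p under 0.05). miR-1839-3p was at +0.79 in MS5 and +0.74 in MS2, and miR-574-3p at -0.71 and -0.89. miR-212 was at 0.02 in MS5 and -0.53 in MS2, miR-139-3p at -0.18 and -1.02, miR-30c at 0.39 and 0.66, and let-7i at 0.28 and 0.60. For MS5 minus MS2, limma called 0 of the 1412 probe sets, and 99 (7.01%) had an unadjusted p under 0.05. Of the 16 called probe sets, 12 were among the latter. The same MS2 arrays chose the 16 and entered this test, so the count is a description. The lowest p was that of miR-212, which was higher in MS5 than in MS2 by 0.55 (95% interval 0.36 to 0.74, unadjusted p = 9.05e-05, adjusted p = 0.128). For miR-139-3p the interval was 0.48 to 1.19 (unadjusted p = 0.000467, adjusted p = 0.330). For miR-1839-3p it was -0.20 to 0.31, and for miR-574-3p -0.16 to 0.52.

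Host genes were read on the mRNA arrays of 5 Con and 5 MS2 pups. Of the called or past-threshold probe sets, 41 had a RefSeq hairpin position, and 24 of these lay within a gene on the same strand. These were 19 host genes, of which 18 had a probe. At an unadjusted p under 0.05, 4 of the 18 differed, where 4.17% of all 55681 mRNA probes did. limma called 0 host genes after adjustment, and 0 of all probes (adjusted p = 0.970 for each of the 4). Pup numbers 16, 17 and 18 of Con and 3 and 4 of MS2 were on both kinds of array, so 5 of the 6 miR pups, every miR control among them, also gave mRNA values.

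Ptprn2, a receptor-type phosphatase of secretory vesicles and host of miR-153, had 8.49, 8.67 and 9.06 as its lowest, median and highest Con level, and the 5 MS2 arrays ran from 8.93 to 9.22 (+0.37 ± 0.10, exact permutation p = 0.0238, n = 5 and 5). The differences of its 3 probes ran from 0.07 to 0.39, and the mean of these probes differed by 0.275. Spaca6, around miR-125a, ran from 7.78 to 7.99 in Con and from 7.98 to 8.16 in MS2 (+0.18 ± 0.05, exact permutation p = 0.0159). For both, the ranges overlapped slightly and the host and the miR named with it were higher in MS2. miR-99b*, at chr17:17830232-17830253 (plus), lies near miR-125a-5p at chr17:17830817-17830840 (plus) but was lower (-0.59). Its other arm, miR-99b, was at -0.195, and no host was assigned to miR-99b* here. Eml2, a microtubule-associated protein gene and host of miR-330*, was higher (+0.29 ± 0.11, exact permutation p = 0.0397) where miR-330* was lower. Copz1, a coatomer subunit gene around miR-148b, was lower (-0.11 ± 0.05, exact permutation p = 0.0714) where miR-148b was higher, and its p rose to 0.537 within mRNA slide 1. With slide as a block 3 of the 18 hosts differed, within slide 1 there was 1 (Ptprn2), and within slide 2 there were 3.

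The hosts of the called miRs overlapped between groups. Clcn5, the chloride transporter gene that spans miR-500, miR-501 and miR-532, had medians of 8.91 in Con and 8.89 in MS2. Its difference was +0.22 ± 0.17, and 0.00 without MS2 replicate 4. Pde2a, around miR-139, differed by -0.18 ± 0.21 (95% interval -0.63 to 0.27). Here too MS2 replicate 4 set the value, at 14.10 against 15.15 or more on the other MS2 arrays, and without it the difference was 0.07. Ska2, around miR-301a, was at -0.15 ± 0.08, Nfyc, around miR-30c, at -0.02 ± 0.07, and Nsrp1, around miR-423, at -0.10 ± 0.05. Fam114a1, around miR-574, was at -0.07 ± 0.08 and Igf2, around miR-483, at 0.39 ± 0.37. The non-coding gene 2900076A07Rik, around miR-1839, differed by 0.00 ± 0.10. Mirg, the non-coding transcript that carries miR-154 and miR-410, was at +0.20 ± 0.12, and at 0.10 without MS2 replicate 4.

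**Figure D5:**
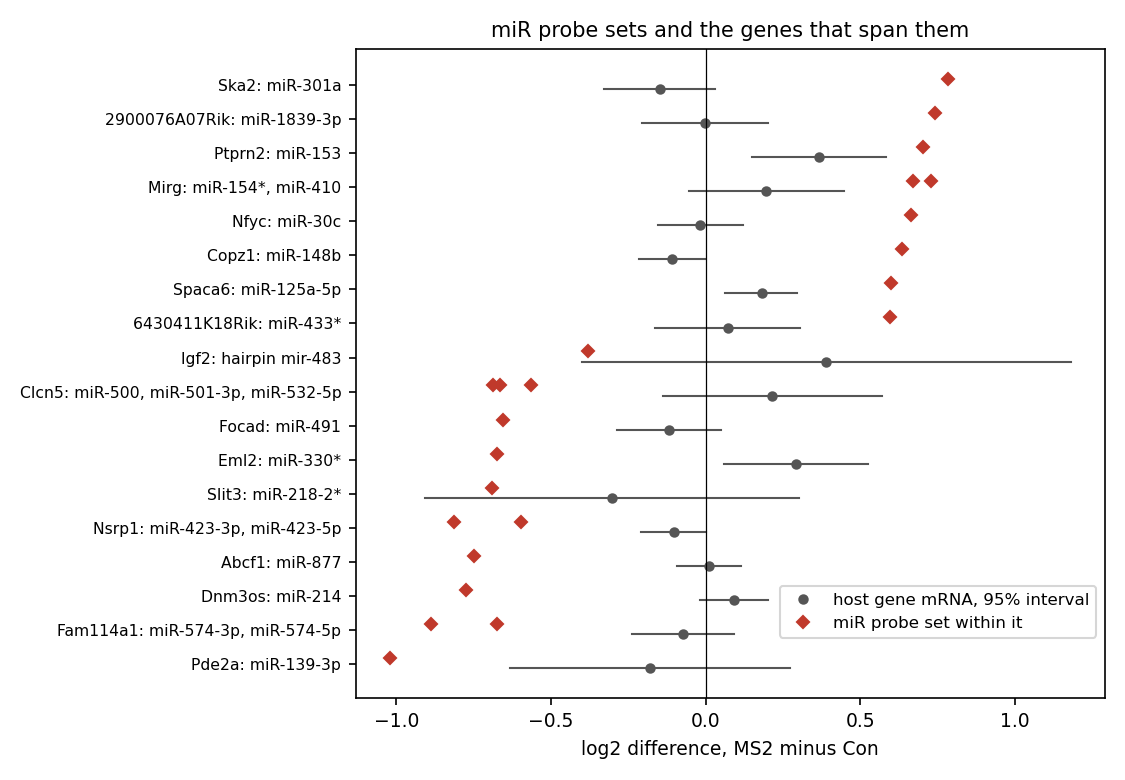
Log2 difference MS2 minus Con of 18 host gene mRNAs (grey, with the 95% interval of the fit, 5 arrays a group) and of the called or past-threshold miR probe sets that lie within them (red diamonds, 3 arrays a group). The host interval includes 0 for 14 of the 18 genes, and the exceptions are Ptprn2, Spaca6, Eml2 and Copz1.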

How the data were processed

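Hippocampal RNA of 24 arrays was read from 2 deposited tables. For miRs, the deposited log2 values had been computed from Affymetrix miRNA 2.0 arrays with RMA (background correction, quantile normalization, median polish), and its log base was taken from the study's log2 fold-change scale, since no miR scanner intensities were used here. For mRNA, the deposited log2 values had been background-adjusted and quantile normalized by the authors. Scanner files gave probe names, slides and the flag for well above background, an other kind of value per the file headers.

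Groups were compared in R 4.3.3 with limma 3.58.1 (lmFit, eBayes), all 3 groups of a platform in 1 fit, with Benjamini-Hochberg adjustment over all 1412 miR probe sets or 55681 mRNA probes. No filter on low levels was applied. The number of arrays, 3 a group for miRs, limits the precision. Exact permutation tests were two-sided. A host gene was represented by its probe with the highest mean level. Sequences and positions are from RefSeq (GRCm38.p6). By exact name, stated arm or the arms listed for the miR, 555 of 722 mature probe sets were matched. The steps were tested on simulated data. Alternatives were fewer groups, centring, quantile normalization, array weights, a level filter, separate tests of mature and hairpin probe sets, a trended robust prior, q values, slide and single arrays left out.

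Named were all called and past-threshold miRs, arms, hairpins and seed relatives of called ones, the miRs of the study's PCR, and the 2 mature members of each list with the largest difference. Further list and cluster members, named to show what lies behind a count, were chosen after their values were seen. The members and lists were chosen with earlier results of these data known. Columns of the authors' comparisons were not used. PCR and target predictions were not analysed here.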

Additional observations from a re-analysis of the deposited data

Results flagged for a closer look

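In 3 of 36 groups of 5 mRNA arrays of host genes, the highest or lowest array lay far from the others relative to the range of its group; chance alone flags about 1 in 20 groups. Clcn5 mRNA was 9.98 on MS2 replicate 4, against 9.02 on the next highest MS2 array. Slit3 mRNA, whose gene spans miR-218-2, was 8.45 on MS2 replicate 4, against 9.90 on the next lowest. 6430411K18Rik, around miR-433, was 10.29 on MS2 replicate 5, against 10.64. Groups of 3 miR arrays cannot be examined in this way. The miR array with the number MS2 replicate 4 had the lowest MS2 level of miR-500 (9.08).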

How the results depend on the processing

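All 16 called probe sets kept their direction in every setting that tested them. Because their groups did not overlap, this was fixed in advance where single arrays were left out. The same holds where only the prior, the adjustment or the choice of probe sets changed. The called count was 0 with only the 2 groups in the fit and 0 with a trended robust prior (169 and 179 at an unadjusted p under 0.05). It was 38 with array weights and 5 with the GC trend removed. The mature count was, in the same order, 0, 0, 36 and 5. The GC step covered only 257 probe sets, of which 17 were called without it, so its counts are not comparable with those over all 1412. The hairpin count, 1 in the report, was 0 with 2 groups, median centring or the trended prior, and 2 with array weights, q values or hairpins tested alone. The count past 1.5-fold was 67 with array weights and, among the 257 alone, 13 with the GC trend removed. Of the called probe sets, 25, 0 and 2 also differed between MS5 and MS2 with array weights, the trended prior and the GC trend removed. Host genes fell from 4 to 1 within slide 1. Leaving out single arrays gave 0 to 95 called probe sets, 0 to 88 mature, 0 to 7 hairpins, 26 to 91 past 1.5-fold, 0 to 76 that also differed from MS5, and 2 to 5 host genes. The counts of 0 came without Con replicate 16, 17 or 18 or MS2 replicate 6 (for hairpins also without MS2 replicate 3), and the highest miR counts came without MS2 replicate 4. The 26 came without Con replicate 16, and the 2 host genes without Con replicate 18. For the single miRs named, 818 of the alternative values kept their side of the adjusted threshold, 118 lost it and 53 gained it. The causes were not tested. No pairing of Con with MS2 pups was possible, because replicate numbers name single pups and litters were not given in the sources used here. Signal over background limits the probe sets near the array medians.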

Other observations

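Outside any comparison, 3 miRs chosen after their values were seen lay higher on MS2 replicate 4 than on the other MS2 arrays. miR-206, a skeletal muscle miR, was 6.79 there and 4.92 and 5.08 on replicates 3 and 6. miR-216a was 6.02 there and 4.62 and 4.64 on the others, and miR-133a was 5.02 there and 4.33 and 4.02. Other miRs of the muscle list stayed low, with MS2 means of 3.93 (miR-1), 4.10 (miR-208b) and 4.00 (miR-499). Outside that list, miR-344 also stood out. Relative to the Con mean, it was at 2.05 on replicate 4 and at 0.03 and 0.15 on replicates 3 and 6.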
